A study of Mus musculus with 24 samples.

Results

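The genes described here encode 10 antioxidant enzymes: the superoxide dismutases Sod1 and Sod2, the catalase Cat, the peroxiredoxins Prdx1, Prdx2, Prdx3, Prdx5 and Prdx6, and the glutathione peroxidases Gpx1 and Gpx4. They were taken by gene symbol, a rule that holds no measured value, although the list was chosen with earlier results of these data known. Each of the 10 matched a row among the 49585 gene rows of the deposited table. The table holds read counts of 24 single cells from C57/Bl6J mouse fetal liver at embryonic day 14.5, which had been sorted as BFU-E (burst-forming units-erythroid), progenitors at an early step of red cell formation. Before the sort, cells with markers of lymphoid (CD3e, CD45R), myeloid (Ly-6G, CD11b, CD16/32), erythroid (Ter119), stem (Sca-1) or megakaryocytic (CD41) cells had been removed, and the rest were stained for CD117, CD71 and CD24. All cells belong to 1 untreated group on 1 plate, with neither a second condition nor an embryo named for any cell, so the group counts as 1 sample. What follows therefore describes levels and co-variation among these cells, with no test and no p-value.

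Superoxide dismutases turn superoxide, a by-product of respiration, into hydrogen peroxide, which catalase, peroxiredoxins and glutathione peroxidases then reduce to water. Catalase needs no reducing partner, most peroxiredoxins draw electrons from thioredoxin, and glutathione peroxidases draw them from glutathione. Red cells carry oxygen on haem iron, a steady source of superoxide, and are known for large amounts of SOD1, catalase, peroxiredoxin 2 and GPX1 protein. Klf1, the reference gene of much that follows, encodes an erythroid transcription factor that activates globin, haem synthesis and membrane genes.

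Total counts per cell ran from 876983 in cell 23 to 2155010 in cell 18, and between 4767 and 7349 genes had at least 5 counts, the limit used here for calling a gene detected in a cell. Values are CPM, the counts of a gene scaled to a cell's total, and a count of 0 allows up to 1.39 to 3.42 CPM depending on the cell, for counting error only. Of 12 erythroid progenitor markers, 12 were detected in at least 12 cells. Klf1 fell under 10 CPM in 5 cells, at 2.48 in cell 1, 2.85 in cell 9, 0.810 in cell 19, 3.42 in cell 23 and 8.12 in cell 24. It was at 32.4 CPM in cell 10 and between 244 and 1008 CPM in the remaining cells. Some of the low cells also carried genes of other lineages. Mpo, the myeloperoxidase gene, was at 7227 CPM in cell 1, 2507 in cell 23, 738 in cell 9 and 275 in cell 19, and at most 269 CPM in the 19 cells with more Klf1. The summed CPM of 11 myeloid markers was highest in cell 1 (9881, lowest cell 0.595, median 119). The sums of lymphoid and endothelial markers were highest in cell 19 (430 and 457). The endothelial sum there came from Pecam1 alone, since Pecam1 itself held 457 CPM in cell 19. Cdh5, Kdr and Lyve1 of that list were at 0 counts in every cell. Elane, Cebpe and Ms4a3 were at 0 counts in every cell. Relations to Klf1 and between members are therefore given over all cells and over the 19 cells with Klf1 at or above 10 CPM.

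Of the superoxide dismutases, Sod1, the copper-zinc enzyme of the cytosol, was detected in 24 of 24 cells. It ran from 378 CPM in cell 19 over a median of 1024 to 1642 CPM in cell 5, with a mean of 1058 ± 323 (SD over 24 cells, as throughout). The lowest cell stood apart, since the lowest of the 19 cells with Klf1 at or above 10 CPM held 616. Sod2, the manganese enzyme of the mitochondrial matrix, was detected in 23 cells at a mean of 237 ± 106 CPM. It stood at 1.76 CPM in cell 3 and between 77.4 and 424 CPM, with the highest value in cell 2, elsewhere. Sod1 (ENSMUSG00000022982) lies on GRCm38 chr16:90220754-90226329 and Sod2 (ENSMUSG00000006818) on chr17:13006846-13040063.

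Catalase had the largest SD relative to its mean of all members, 98.1%. Cat (ENSMUSG00000027187, chr2:103453849-103485160), the peroxisomal enzyme that splits hydrogen peroxide, averaged 172 ± 169 CPM. It was at 0 in cell 19 and at 1.47 CPM in cell 12, had a median of 102, and reached 696 CPM in cell 17. Without cell 17 the mean was 149 CPM. The 5 cells low in Klf1 were spread over the range, and 3 of them were under the median of Cat.

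Among the peroxiredoxins, Prdx1 and Prdx2 are the main cytosolic forms, and Prdx2 is the abundant one of mature red cells. Prdx1 (ENSMUSG00000028691, chr4:116685544-116700822) had the smallest SD relative to its mean of all members (25.1%), with 461 CPM in its lowest cell (cell 7), a median of 722 and 1135 CPM in its highest (cell 22), and a mean of 746 ± 187. Prdx2 (ENSMUSG00000005161, chr8:84969587-84974834) varied more, from 181 in cell 19 over a median of 748 to 1543 CPM in cell 20, at a mean of 818 ± 372. Its 4 lowest values belonged to cells low in Klf1, which held 311 CPM in cell 1, 588 in cell 9, 181 in cell 19, 197 in cell 23 and 439 in cell 24. The other 19 cells began at 527 CPM, so the groups overlapped by a single cell on that side, with 18 of the 19 above the highest of the 5. Of the exon bases of Prdx2, 11.5% overlap exons of Rnaseh2a or Junb on the other strand, and the libraries carry no strand information, so a part of its reads cannot be told apart from theirs.

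The remaining peroxiredoxins work in other compartments. Prdx3 (ENSMUSG00000024997, chr19:60864051-60874556), the form of the mitochondrial matrix, was detected in 23 cells, at 0.810 CPM in cell 19 and from 123 to 756 CPM, the highest in cell 10, in the rest, with a mean of 389 ± 185. Prdx5 (ENSMUSG00000024953, chr19:6906697-6910106), found in mitochondria, peroxisomes and cytosol, had 20.4 CPM in cell 18, a median of 77.1 and 307 CPM in cell 9, and a mean of 97.0 ± 70.9. Unlike Prdx3, its highest value was in a cell low in Klf1. Exons of Trmt112 cover 19.1% of its exon bases on the opposite strand, so the level of Prdx5 is uncertain.

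Prdx6, which uses glutathione rather than thioredoxin and also acts on oxidised phospholipids, had the widest spread for its level. Prdx6 (ENSMUSG00000026701, chr1:161240112-161251219) was at 5.67 CPM in cell 19, next at 389 CPM, had a median of 1433 and reached 5076 CPM in cell 17, with the next highest cell at 3714. Its mean was 1517 ± 1047 CPM, and 1362 ± 738 without cell 17. Cell 19, almost without Prdx6, Prdx3 and Cat, kept 637 CPM of Prdx1 and 1716 CPM of Gpx1, so its low values were not shared by every member.

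The glutathione peroxidases are selenoproteins, made by reading a UGA codon as selenocysteine. Gpx1 (ENSMUSG00000063856, chr9:108338903-108340343), the cytosolic enzyme, ran from 1155 CPM in cell 8 over a median of 1796 to 4448 CPM in cell 20, at a mean of 2100 ± 936. Gpx4 (ENSMUSG00000075706, chr10:80047166-80056439), which reduces lipid peroxides within membranes, ran from 90.4 CPM in cell 22 over a median of 291 to 473 CPM in cell 17, at a mean of 282 ± 93.9. A processed copy, Gpx4-ps2, is 99.7% identical over 762 bases and held 24.4 CPM on average, 8.66% of the level of Gpx4, so the counting may have split reads between them.

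**Figure D1:**
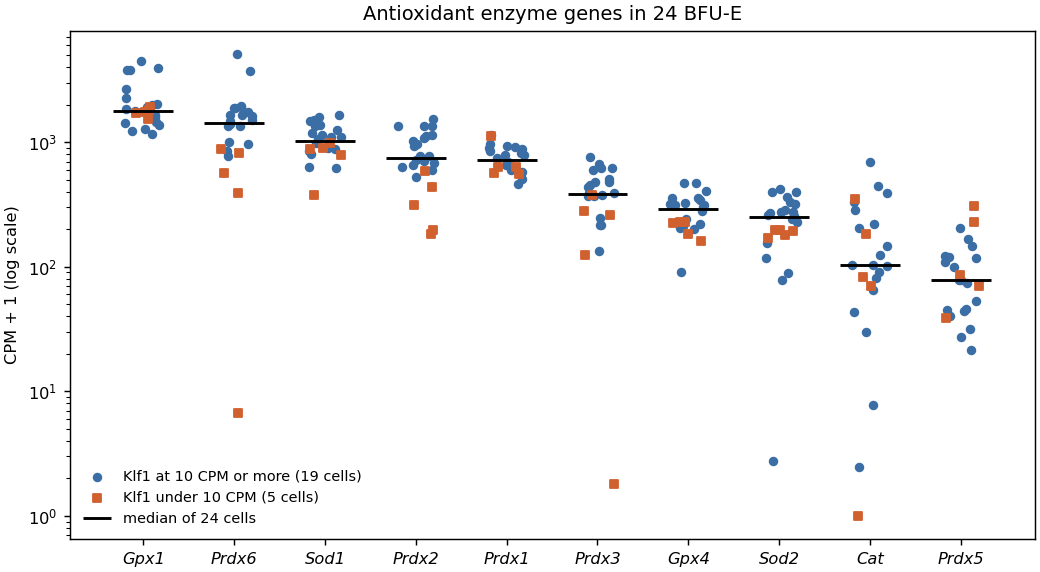
Level of each member in each of the 24 cells, in CPM + 1 on a log axis; squares are the 5 cells with Klf1 under 10 CPM, circles the other 19, and bars the medians. Prdx1 stays between 461 and 1135 CPM and Gpx1 between 1155 and 4448, while Prdx6, Prdx3 and Cat drop to 5.67, 0.810 and 0 CPM in cell 19.

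Together the 10 members took 0.742% ± 0.202 of a cell's counts, from 0.334% in cell 19 to 1.15% in cell 17, and Gpx1 and Prdx6 made up 48.8% of that sum. Per kilobase of all annotated exons, Gpx1 led at 1457 CPM per kb and was above Prdx6, next at 316 ± 218, in 24 of 24 cells. Prdx6, Prdx2 (268), Sod1 (266), Prdx3 (264) and Prdx1 (245) could not be put in order, since each exceeded the next in only 12 to 14 cells. Gpx4 followed at 163 CPM per kb, under Prdx1 in 21 cells and above Cat (65.8) in 22, and Cat, Prdx5 (45.4) and Sod2 (23.7) again lay close, with the first above the next in 14 and 15 cells. This order depends on the exon model. The annotated exons of Sod1, for example, span 3970 bases in union but 641 in the principal transcript. With principal transcripts, Sod1 stood second at 1650 CPM per kb behind Gpx1 at 1959, which exceeded it in 13 of 24 cells. Sod1 was then above Prdx6 in 23 cells, and Prdx2 above Prdx1 in 18. Gpx4 came between Prdx1 and Prdx3, under Prdx1 in 15 cells and above Prdx3 in 13.

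The spread of a member was set beside that of the 300 genes closest to it in mean log2(CPM + 1). Members near the top of all genes in mean, such as Prdx6, Prdx2, Sod1 and Gpx1, were instead all set beside the 300 highest other genes. The SD of Prdx6 was at the 99.3rd percentile of its neighbours, that of Prdx3 at the 93.3rd and that of Prdx2 at the 90.3rd. At the other end, Prdx5 was at the 6.33rd, Gpx4 at the 11.7th and Prdx1 at the 27.3rd percentile, so these varied less than most genes of their level. Sod1 (51.3rd) and Gpx1 (61.3rd) were near the middle, and Sod2 (71.3rd) and Cat (83.7th) above it. Cell 19 set part of this: without it Prdx6 was at the 93rd, Prdx2 at the 87.7th and Prdx3 at the 61st percentile. Sod2 owed its place to cell 3, without which it was at the 23.3rd.

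Relation to Klf1 was measured as Spearman's rho of log2(CPM + 1) over cells, and a gene was counted as higher or lower with Klf1 at a rho of at least 0.4 or at most -0.4. Prdx6, Prdx2, Sod1, Prdx3 and Gpx4 were higher in cells with more Klf1, that is 5 of 10 members, where 8.4% of 8265 genes passed the same limit. At a limit of 0.6, Prdx6 and Prdx2 passed, 2 of 10 against 1.08% of genes. None of the members was lower, against 4.63% of genes. The median rho of the members was 0.36, and that of all genes 0.056. Both values of a cell come from its 1 library, and Klf1 itself had a rho of 0.65 with total counts and 0.38 with the number of genes detected.

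Prdx6 had the highest rho with Klf1, 0.67 (Pearson's r 0.67, and 0.54 without cells 19 and 1, the farthest from the median of Klf1). Prdx2, which lies on chromosome 8 as Klf1 does and starts 64295 bases beyond its end with 4 protein-coding genes between, had a rho of 0.61 (r 0.82, then 0.71). Sod1 had 0.54 (r 0.58, then 0.41), Prdx3 0.49 (r 0.54, then 0.37) and Gpx4 0.48 (r 0.45, then 0.40). These 5 enzymes come from all families but catalase and from cytosol and mitochondria alike. The remaining members ranged from the 75.2nd percentile of all genes (Sod2) down to the 6.33rd (Prdx5): Sod2 had a rho of 0.23, Gpx1 0.22, Prdx1 0.13, Cat -0.07 and Prdx5 -0.36.

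Most of this lay between the 5 cells low in Klf1 and the rest. In all 5 of these cells each of the 5 enzymes was under its own median over the 24 cells. The 5 enzymes were picked by rho over these same cells, so this follows largely from the choice. Sod2 was also under its median in all 5 cells, Prdx1 in 4, Cat and Gpx1 in 3 and Prdx5 in 2. The share of all genes was not computed. Of the 19 other cells, 18 were above the highest low cell for Prdx2, 17 for Prdx6, 14 for Gpx4, 13 for Prdx3 and 12 for Sod1, compared with 8 for Gpx1, 3 for Cat, 1 for Prdx1 and 0 for Prdx5. Sod2 had 14, although its rho was low. Within the 19 cells, only Sod1 reached the limit, at a rho of 0.40, 1 of 10 where 6.47% of genes passed, and 0 of 10 were lower (5.15% of genes), while Prdx6 had 0.39, Gpx4 0.24, Prdx2 0.23 and Prdx3 0.22. The median rho of the members was then 0.23, and that of all genes 0.026.

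**Figure D2:**
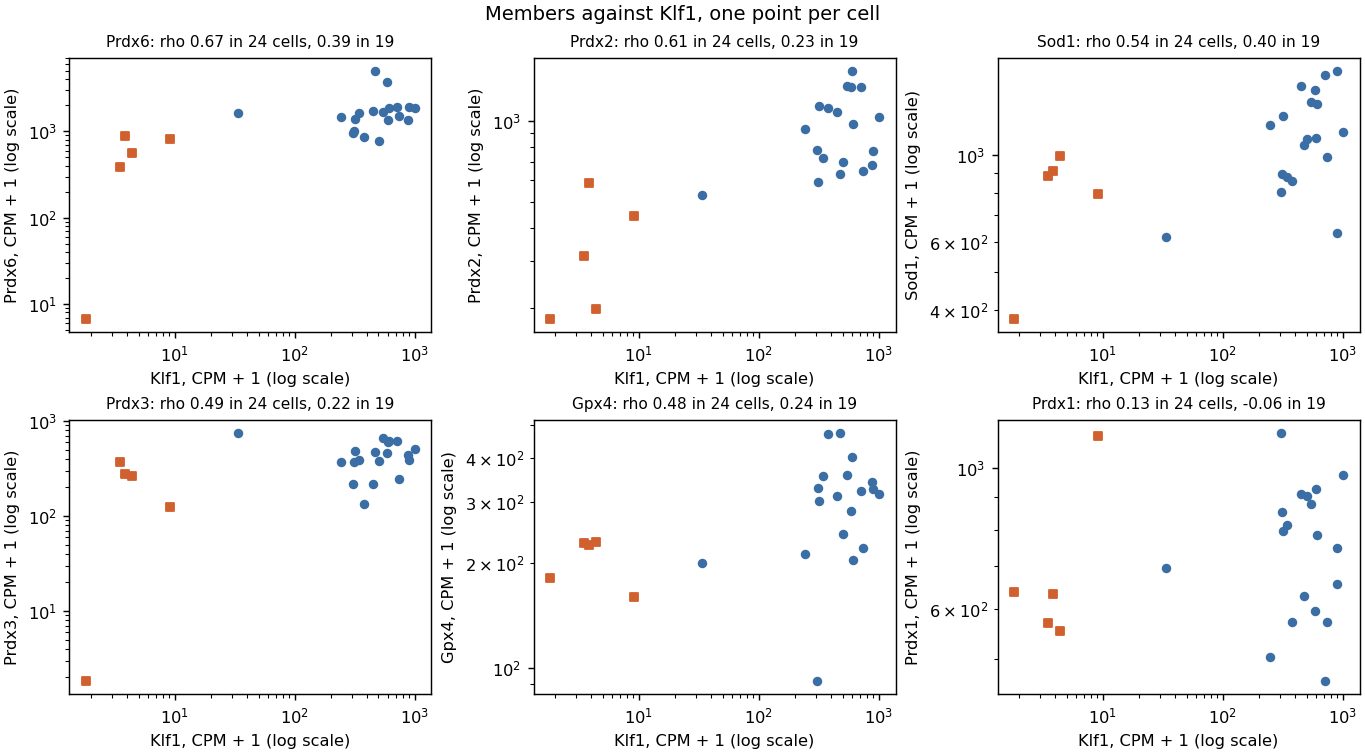
Level of 6 members against Klf1, 1 point per cell, both in CPM + 1 on log axes; orange squares are the 5 cells with Klf1 under 10 CPM and blue circles the other 19. Prdx6, Prdx2, Sod1, Prdx3 and Gpx4 lie low in the squares. Among the circles rho is 0.40 for Sod1, 0.39 for Prdx6 and 0.22 to 0.24 for the other 3. Prdx1 has a rho of 0.13 over all cells and -0.06 among the circles. It is under its median in 4 squares, but only 1 circle lies above its highest square.

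**Figure D3:**
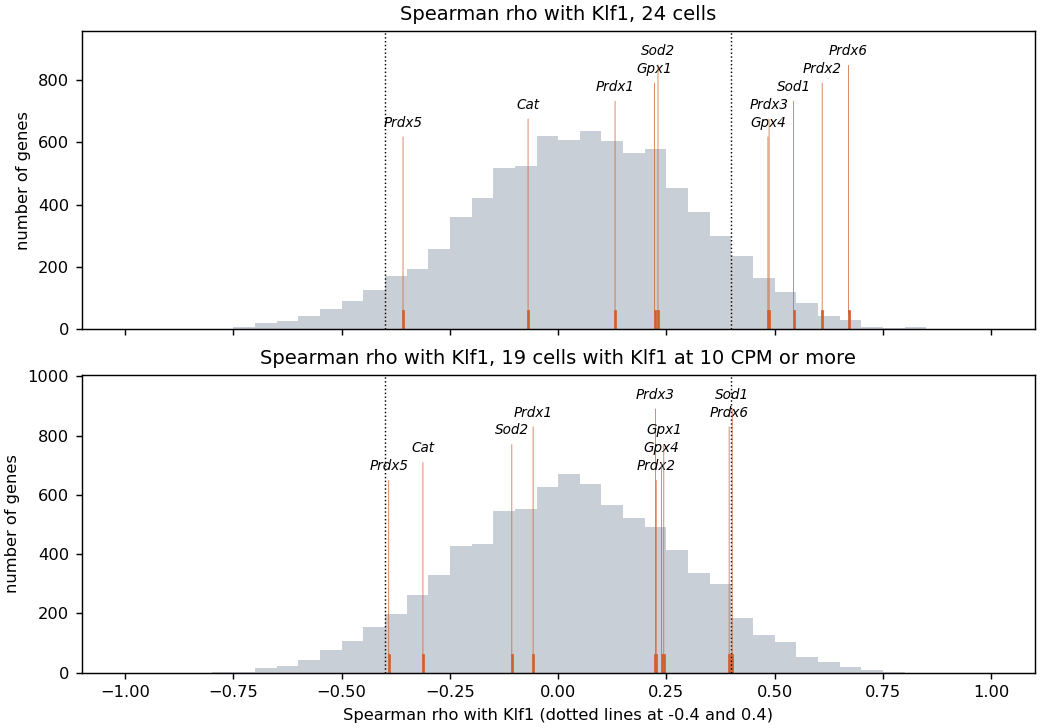
Number of genes (vertical axis) by Spearman's rho with Klf1 (horizontal axis), over all 24 cells above and over the 19 cells with Klf1 at or above 10 CPM below; lines mark the 10 members and dotted lines -0.4 and 0.4. In 24 cells 5 members lie right of 0.4, and in 19 cells Sod1 alone reaches it.

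The values were next computed with depth and plate position held apart. With ranks adjusted for total counts and genes detected, 4 of 10 members were at or above 0.4 (5.57% of genes): Prdx6 at 0.62, Prdx2 at 0.55, and Sod1 and Gpx1 both at 0.43. Prdx3 and Gpx4 then had 0.32 and 0.33. Within the 3 plate columns of 8 cells each, 4, 4 and 5 members passed, where the shares of all genes were 25.1%, 19.7% and 20.6%. Prdx5 was lower in columns 2 and 3, at -0.62 and -0.40, 1 of 10 where 15.8% and 16% of genes were. Scaled by size factors, a median ratio over shared genes, it was lower too, at -0.44 (5.67% of genes). Prdx6 had a rho of 0.76, 0.62 and 0.45 in the 3 columns, while Sod1 ran from 0.86 to 0.17 and Prdx2 from 0.83 to 0.21, so 8 cells fix these values poorly.

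Other reference genes gave smaller counts. With Epor, the erythropoietin receptor gene, Prdx6 had a rho of 0.52 and Prdx2 of 0.48, 2 of 10 where 4.79% of genes passed, and 0.18 and 0.11 in the 19 cells. With Gata1, an erythroid transcription factor gene, the highest was Gpx4 at 0.33, so 0 of 10 passed (3.97% of genes). With Gata2, a factor of earlier progenitors, the members ran from -0.33 (Sod2) to 0.37 (Prdx1), with Kit, the gene for CD117, from -0.32 (Gpx4) to 0.21 (Cat), and with Mki67, a proliferation marker, from -0.29 (Gpx1) to 0.29 (Cat). With Mcm6, a DNA replication gene, Sod2 alone passed at 0.45 (3.01% of genes). With the summed level of 12 S phase genes, Sod2 had 0.51 and Prdx6 0.43, 2 of 10 higher (3.13% of genes), and Prdx5 had -0.51, 1 of 10 lower (3.42%). These 3 values were 0.47, 0.50 and -0.49 in the 19 cells. There Gata2 had a rho of -0.60 with Prdx6, -0.53 with Sod1, -0.45 with Sod2 and -0.41 with Prdx3, and at most 0.398, with Prdx1. Mcm6 had 0.50 with Sod1 and 0.45 with Sod2, Mki67 -0.45 with Gpx1, and Epor -0.44 with Sod2 in these cells. Shares of all genes in the 19 cells were not computed for these reference genes.

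Myeloid markers ran the other way. With the summed level of the 11 myeloid genes, Prdx6 had a rho of -0.78, Sod1 -0.65, Prdx2 -0.59, Prdx3 -0.45 and Sod2 -0.41, 5 of 10 lower where 7.66% of genes were. In the 19 cells Prdx6 had -0.68 and Sod1 -0.62, and Sod2 (-0.25), Prdx2 and Prdx3 (-0.24 both) were nearer 0. Of the 11 myeloid genes, 3 were detected in at least 12 cells, so the ranks of this sum rest on few genes. Mpo had a median of only 0.785 CPM in the 19 cells. With Mpo alone Gpx4 had -0.56, Prdx2 -0.51 and Prdx6 -0.40, 3 of 10 lower (5.9% of genes), and Prdx5 had 0.47, 1 of 10 higher (3.19%). In the 19 cells Gpx4 had -0.45, Prdx5 0.47, Prdx2 -0.12 and Prdx6 0.06. The sum of hepatocyte markers was highest in cell 10 (1360 CPM), with a median of 18.8 and a lowest value of 3.92. Of its 11 genes, 1 was detected in at least 12 cells, so most of its ranks rest on low counts. With this sum Sod1 had -0.55, Prdx2 -0.45, and Gpx4 and Prdx6 -0.44 and -0.43, 4 of 10 lower (3.57% of genes). In the 19 cells Sod1 had -0.49 and the other 3 between -0.32 and -0.27. With the summed level of 11 megakaryocyte markers the members ran from -0.46 (Sod1) to 0.18 (Cat). In the 19 cells Prdx6 had -0.63, Sod1 -0.62, Prdx2 -0.52 and Prdx3 -0.51 with it, and the highest was Prdx5 at 0.09. Of the 11 megakaryocyte genes, 3 were detected in at least 12 cells. Shares of all genes were not computed for the megakaryocyte sum. The part of these other transcripts in the relation to Klf1 was not tested.

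Since Sod1, Prdx2 and Prdx3 were higher with Klf1 and Prdx1 was not, the promoters of these 4 genes are shown for the letters known to bind erythroid and stress factors. Sequences are from RefSeq on GRCm38.p6, written along the gene from up to 250 bases before the RefSeq start to the base before the annotated gene: chr16:90220512-90220753 (plus strand), chr8:84969372-84969586 (plus), chr19:60874557-60874788 (minus) and chr4:116685349-116685543 (plus). Capitals mark matches on either strand to a CACCC box (CCNCNCCC, the type of site KLF1 binds), a GATA site (GATA with A or T before it and A or G after it), the core of the antioxidant response element (TGACNNNGC, bound by NRF2) or a GC box (GGGCGG), and CACCC and GC boxes can share bases.
Sod1: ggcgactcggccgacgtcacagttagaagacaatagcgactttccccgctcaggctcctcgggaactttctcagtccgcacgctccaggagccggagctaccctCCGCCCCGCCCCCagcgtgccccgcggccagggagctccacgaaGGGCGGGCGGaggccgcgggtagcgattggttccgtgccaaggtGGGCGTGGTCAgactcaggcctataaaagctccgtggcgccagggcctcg
Prdx2: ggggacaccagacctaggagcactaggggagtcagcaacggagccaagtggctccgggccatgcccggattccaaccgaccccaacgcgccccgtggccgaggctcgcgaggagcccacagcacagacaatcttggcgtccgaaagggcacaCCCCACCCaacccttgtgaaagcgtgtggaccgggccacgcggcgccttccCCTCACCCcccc
Prdx3: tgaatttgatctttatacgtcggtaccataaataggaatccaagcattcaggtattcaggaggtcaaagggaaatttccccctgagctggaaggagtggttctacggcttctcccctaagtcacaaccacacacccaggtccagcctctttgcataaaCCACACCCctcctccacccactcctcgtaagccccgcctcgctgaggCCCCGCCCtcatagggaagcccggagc
Prdx1: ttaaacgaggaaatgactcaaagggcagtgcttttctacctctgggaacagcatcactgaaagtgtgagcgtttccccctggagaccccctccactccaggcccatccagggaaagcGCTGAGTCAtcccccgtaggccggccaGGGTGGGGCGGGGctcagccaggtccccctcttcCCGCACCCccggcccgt
In these stretches Sod1 had 3 CACCC boxes, 4 GC boxes and 1 antioxidant response element core. Prdx2 had 2 CACCC boxes and no other match, Prdx3 2 CACCC boxes and 1 GC box, and Prdx1 3 CACCC boxes, 1 GC box and 1 antioxidant response element core. Over the full 250 bases of all 9 members with a RefSeq promoter, 8 had a CACCC box, as did 45.9% of 32851 promoters, and Gpx1 had none. A GC box was in 7 of 9 (32.7% of promoters), the response element core in Sod1 and Prdx1 (10.2%), and a GATA site in Gpx4 alone (26.5%), which is entered with several starts. Prdx1, not higher with Klf1, carried as many CACCC boxes as Sod1. A match only describes the letters.

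**Figure D4:**
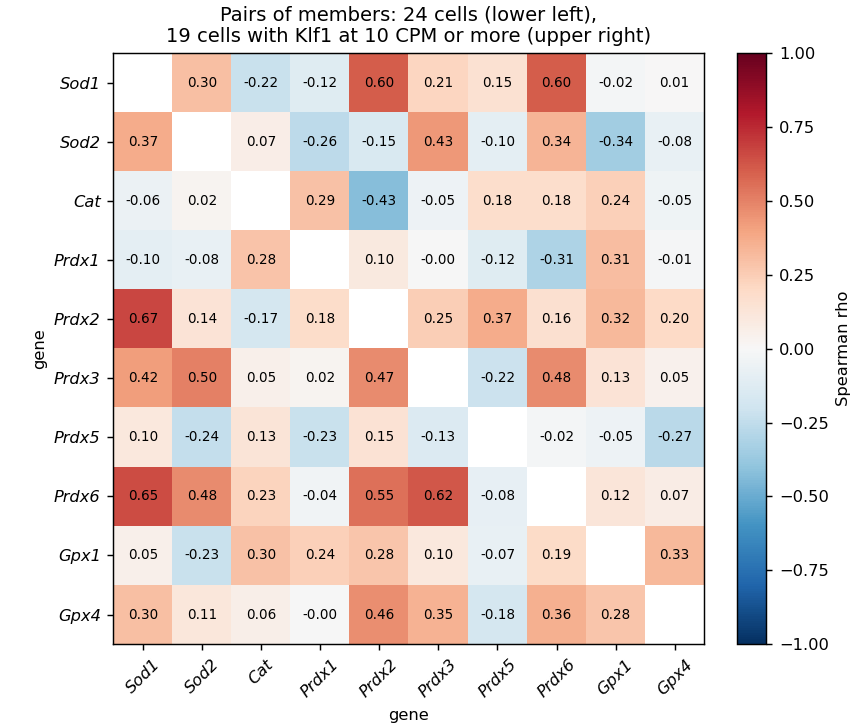
Spearman's rho of log2(CPM + 1) between members, over 24 cells (lower left) and over the 19 cells with Klf1 at or above 10 CPM (upper right); colour and number in each square give rho. Sod1, Prdx2, Prdx3 and Prdx6 form a block of values from 0.42 to 0.67 in 24 cells, which is smaller in 19 cells.

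Among the 45 pairs of members the mean rho was 0.17, and that of all gene pairs detected in at least 12 cells was 0.0089. In 9 pairs rho was at least 0.4 (3.54% of all pairs), and in 0 pairs at most -0.4 (2.96% of all pairs). Sod1, Prdx2, Prdx3 and Prdx6 held 6 of the 9: Sod1 with Prdx2 had 0.67, Sod1 with Prdx6 0.65, Prdx3 with Prdx6 0.62, Prdx2 with Prdx6 0.55, Prdx2 with Prdx3 0.47 and Sod1 with Prdx3 0.42. The mitochondrial pair Sod2 and Prdx3 had 0.50, Sod2 with Prdx6 had 0.48 and Prdx2 with Gpx4 0.46. In the 19 cells the mean was 0.081 and 4 pairs passed (5.01% of all pairs), Sod1 with Prdx2 and with Prdx6 (0.60 both), Prdx3 with Prdx6 (0.48) and Sod2 with Prdx3 (0.43). Cat and Prdx2 were then the only pair at or under -0.4, at -0.43 (4.8% of all pairs), but had 0.38 in plate column 1. Prdx2 and Prdx6 had -0.26 in plate column 2. With ranks adjusted for depth, 4 pairs were at or above 0.4 (3.78% of all pairs).

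The cells also differed in which form of an enzyme they held. Per kilobase of exon, Prdx2 made up 49.9% ± 13.5 of the sum of Prdx1 and Prdx2, from 22.1% in cell 19 to 74.4% in cell 7. It was below 50% in all 5 cells low in Klf1, at 35.3% in cell 1, 48.1% in cell 9, 22.1% in cell 19, 26.2% in cell 23 and 28.1% in cell 24. In the other 19 cells it lay between 40.6% and 74.4% and was above 50% in 13. Its rho with Klf1 was 0.58 in 24 cells, 0.26 in the 19, and 0.83, 0 and 0.38 within the 3 plate columns. Taken per principal transcript, the share averaged 58.1% and was above 50% in 18 of 24 cells. The share of Prdx3 in the sum of Prdx3 and Prdx5 was 80.4% on average, 2.99% in cell 19, and had a rho of 0.61 with Klf1 (0.33 in the 19). Sod1 was 91.4% ± 4.43 of the sum of Sod1 and Sod2, and Gpx1 89.0% ± 4.21 of the sum of Gpx1 and Gpx4, each the larger in 24 of 24 cells.

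**Figure D5:**
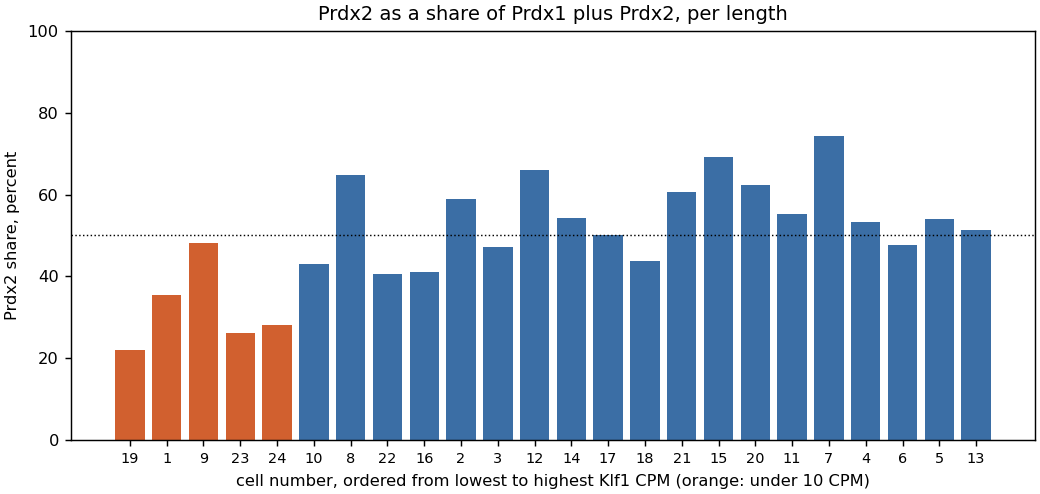
Share of Prdx2 in the sum of Prdx1 and Prdx2 per kilobase of exon, in percent, as a bar for each cell. Cells are in rank order of Klf1. Orange bars are the 5 cells with Klf1 under 10 CPM, blue bars the other 19. The line marks equal shares of Prdx1 and Prdx2. The share lies between 22.1% and 48.1% in the 5 cells and between 40.6% and 74.4% in the other 19.

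For each member the genes most like it across the 24 cells were taken from the 5962 genes detected in at least 12 cells. Among the genes closest to Prdx2 were Urod (rho 0.77), an enzyme of haem synthesis, and Gclm (0.73), a subunit of the enzyme that starts glutathione synthesis. Prdx6 was closest to Kel (0.81), a red cell blood group gene, Gmnn (0.81), a replication inhibitor, and Hspd1 (0.79), a mitochondrial chaperone gene. Sod1 was closest to Fpgs (0.81), which retains folates in cells, Tnfaip2 (0.80) and Chtf18 (0.80). These genes were picked for being the highest among all, and the values are a description of these cells. Urod had 0.68, Gclm 0.51, Kel 0.72 and Fpgs 0.82 with the same members in the 19 cells.

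The other members had these nearest genes. For Prdx3 they were Dus1l (0.75), Cdt1 (0.72), which licenses replication, and Bop1 (0.72), a ribosome assembly gene. For Gpx4 they were Tmem19 (0.77), Oat (0.74) and Asap1 (0.74), and for Gpx1 Rbm10 (0.75), Pdhb (0.69) and Rbm19 (0.63). Sod2 was nearest to Mccc2 (0.72), Ctbp1 (0.71) and Slc16a3 (0.70), and Cat to Ndufb6 (0.71), Rnaseh2b (0.69) and Nectin2 (0.68). Prdx1 had Tasp1 (0.68), Yipf1 (0.67) and Dffb (0.65), and Prdx5 had Snrpf (0.70) and Med17 (0.67) among its closest.

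Of the other members of these families, 6 of 9 were at 0 counts in every cell (Sod3, Gpx2, Gpx5, Gpx6, Gpx7 and Gpx8, listed after their values were seen). Ccs, which loads copper into SOD1, averaged 63.8 ± 79.8 CPM in 18 detected cells of 24, and Prdx4, the form of the endoplasmic reticulum, 113 ± 70.8 in 22. Neither passed the limit with Klf1 over 24 cells, at a rho of -0.25 and -0.02. In the 19 cells Ccs had -0.42, 1 of 2 lower (5.15% of genes), and Prdx4 -0.11.

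Genes linked to thioredoxin, glutathione and NADPH, not all of which supply electrons to these enzymes, were counted by the same limits. Of all genes, 8.4% passed these upward and 4.63% downward. In the thioredoxin list, 1 of 8 genes detected in at least 6 cells was higher with Klf1 (Txnl1, rho 0.45) and 1 lower (Sesn1, -0.47, a stress-induced regulator), at a median of 0.21. Txnl1 had 0.39 and Sesn1 -0.16 in the 19 cells. Per kilobase its highest genes were Txn1, cytosolic thioredoxin, with 510 CPM per kb, Txn2, the mitochondrial form, with 101, and Txnl1 with 55.1, and Txnrd3 (0.38) and Txnip (-0.17) came next in rho on either side. In the glutathione list 2 of 13 were higher, Gclm (0.65) and Glrx5 (0.61, an iron-sulfur glutaredoxin), and 0 lower, at a median of 0.36. Over the 19 cells Gclm had 0.36, Glrx5 0.28 and the list a median of 0.11, with 0 of 13 higher. Glrx5 led it with 151 CPM per kb, before Gstp1 (125) and Gsto1 (122), and Glrx3 (-0.12) and Slc3a2 (0.06) had its lowest rho. In the NADPH list, 1 of 11 genes was higher (Nadk2, 0.58, the mitochondrial NAD kinase). In it 2 were lower, the isocitrate dehydrogenases Idh1 (-0.41) and Idh2 (-0.43), at a median of -0.17. Idh1 had -0.49, Nadk2 0.34 and Idh2 -0.10 in the 19 cells, where the median was 0.01. Taldo1 (181 CPM per kb, rho 0.37), Idh2 (160) and Tkt (93.3) were its highest.

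Genes around the stress regulator NRF2 showed 0 of 9 in either direction, at a median rho of 0.09. Its highest were Park7, a redox sensor, with 284 CPM per kb, Sqstm1 with 62.4 and Hmox2 with 42.1, and its extremes in rho were Mafg (0.25), Park7 (0.21), Hmox2 (-0.24) and Nfe2l1 (-0.20). Hmox1, the inducible haem oxygenase, was detected in 0 of 24 cells (named after its values were seen). Of 13 genes of selenoproteins and their synthesis, which Gpx1 and Gpx4 need, 2 were higher, Msrb1 (0.60, at a mean of only 2.47 CPM) and Selenot (0.45), and 0 lower, at a median of 0.16. These had 0.63 and 0.37 in the 19 cells, where the median was -0.02. Selenow (305 CPM per kb), Selenoh (199) and Sephs2 (94.6) led it, and Eefsec (-0.06) and Selenok (-0.06) were lowest in rho. Of 10 peroxisome genes, the compartment of catalase, 1 was higher (Pex3, 0.40, and 0.51 in the 19 cells), with Pex5 (0.25) next, and 0 lower, with Pex14 (-0.18) among the lowest and a median of -0.03. Pex2 (39.7 CPM per kb), Pex16 (29.1) and Pex19 (25.3) were its highest. For comparison, 4 of 8 haem synthesis genes, 4 of 21 respiration genes and 1 of 14 glycolysis genes were higher with Klf1, at medians of 0.46, 0.16 and 0.15, and 1 glycolysis gene, Pkm, was lower at -0.51 (named after its values were seen). In the 19 cells 2 haem, 1 respiration and 1 glycolysis genes were higher and 2 glycolysis genes lower, at medians of 0.14, 0.09 and 0.05.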

How the data were processed

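Each of the 24 cells gave 1 Smart-seq2 library, sequenced without strand information per the labels' protocols. The authors deposited raw read counts per gene. The submitters' processing notes name STAR 2.4, featureCounts and GRCm38. Annotation release, counting options and cell filters were not given in the sources used here. Of the 49585 rows, 49326 matched a symbol in GENCODE M21, which gave coordinates and exon lengths. CPM were computed from the sum of all rows of a cell and compared as log2(CPM + 1), in Python 3.11.15 with pandas 2.3.3 and SciPy 1.17.1. Background genes had at least 5 counts in at least 6 cells (8266), and pairs and nearest genes used those in at least 12 (5962). Copies were searched for with blastn 2.17.0 at 95% identity over at least 400 bases. No 2 cells correlated above 0.614, so none was taken as a duplicate, and no doublet caller was run. The calculations were tested on simulated data.

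The members, the gene lists, the 10 CPM limit for Klf1 and the rule for naming genes were chosen with earlier results of these data known. The rule names all members, the 3 genes closest to each, the 3 highest per kilobase and the 2 highest and 2 lowest in rho of each pathway list, the reference genes, and from marker lists those at 0 and the highest. From the marker lists other than myeloid, it names C1qa, C1qb, C1qc, Adgre1, Mrc1 and Vcam1 (macrophage), Pf4 and Ppbp (megakaryocyte), Serpina1a (hepatocyte), Cd3e, Cd79a and Dntt (lymphoid), Ms4a2, Fcer1a, Gzmb and Tpsb2 (mast cell) and Cdh5, Kdr and Lyve1 (endothelial), all at 0 counts. The highest by mean CPM were Mpo (466), Csf1r (22.4), F2r (233), Afp (26.1), Rag1 (10.2), Cpa3 (74.0) and Pecam1 (41.4). A few genes that fall under this rule are left out of the text. No promoter of Prdx6 was used here. A cell is not a replicate animal, PCR copies are not independent molecules, and depth limits low levels only.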

Additional observations from a re-analysis of the deposited data

How the results depend on the processing

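No paired analysis was possible because there is 1 group and no comparison between groups. All 10 members were detected in at least 50% of the cells used, under every alternative run for that count. Restricting to the 19 cells with Klf1 at or above 10 CPM gave 1 member higher with Klf1 in place of 5, a median rho of 0.23 in place of 0.36, a mean pair rho of 0.081 in place of 0.17 and 4 pairs in place of 9. Scaling by size factors gave 1 member lower with Klf1 in place of 0 (Prdx5, -0.44), a median of 0.30 and a mean pair rho of 0.11. The single plate columns gave medians of 0.29 (column 1) and 0.30 (column 2), mean pair rho of 0.19, 0.072 and 0.10, 1 member lower with Klf1 in columns 2 and 3, and 1 member at or above the 90th percentile of spread in column 3, in place of 3. Adjusted ranks gave 4 pairs, and a threshold of 0.6 gave 2 members higher with Klf1 (1.08% of genes) and 3 pairs. Leaving out each cell in turn gave 5 members higher throughout, 0 to 1 lower (Prdx5 without cell 10, 15 or 19), a median rho of 0.32 to 0.39, a mean pair rho of 0.11 to 0.19, 8 to 11 pairs and 1 to 3 members at the 90th percentile, the lowest without cell 19. Without a filter on low counts, 5.31% of genes were higher with Klf1. Principal transcript lengths, chosen after seeing the data, moved 6 of 10 levels per kilobase. The cause of these changes was not tested, and all 5 members higher with Klf1 kept a positive rho under each alternative run on rho. Of values not counted above, Prdx3 had a Pearson r of -0.11 with Klf1 in the 19 cells, and the pair Prdx2 and Prdx6 was at -0.26 in plate column 2.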
